A study of Mus musculus with 9 samples.

Results

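The genes described are 35 mouse genes of the heat shock response (15 genes), the integrated stress response (10 genes) and the stress response of the endoplasmic reticulum (ER, 10 genes). They were chosen as a list of gene symbols, not by their values, and each matched a row of the deposited table, so that they are 35 of its 55421 genes. The table holds bulk RNA sequencing of hippocampal cells that were sorted by tdTomato, a red fluorescent reporter of the neurons of these mice, in 9 libraries. KO mTBI stands for 3 libraries from Tmsb4x conditional knockout mice given a mild traumatic brain injury (mTBI), which was 1 mild controlled cortical impact. WT mTBI stands for 3 libraries from wild-type mice after that injury, and WT sham for 3 libraries labelled as wild-type mice operated without the impact. All 3 groups carried the tdTomato transgene, and the cells of all 3 were freed with trypsin before sorting. The labels give neither the Cre line, the deleted part of Tmsb4x, the age or sex of the mice nor the time after injury; a knockout sham group is not among the samples. A library is named below by its group and replicate number, as in KO mTBI 2.

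Cells answer misfolded proteins in separate compartments. In the cytosol the transcription factor Hsf1 drives genes of chaperones such as Hsp70 and Hsp90. In the ER, the sensors Ire1, Atf6 and Perk, Ire1 through the factor Xbp1, raise ER chaperones such as Hspa5 (BiP). In the integrated stress response, phosphorylation of the initiation factor eIF2α slows translation while the transcription factor Atf4 is translated more and drives Ddit3 (CHOP), Trib3, Chac1 and genes of amino acid synthesis. Neurons are known for high levels of constitutive chaperones.

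Totals lay between 36452443 and 39590872 counts per library. Levels are given as CPM, counts of a gene per library total after TMM scaling, brought to the same total in all libraries. Tmsb4x, the targeted gene, stood at 1.83, 2.79 and 2.77 CPM in the KO mTBI libraries, at 900, 553 and 297 CPM in the WT mTBI libraries and at 2.73, 1.68 and 2.23 CPM in the libraries labelled sham. The libraries labelled sham were thus at the knockout level of this gene, against their wild-type label, and every direction against them below is given for libraries so labelled. The biological coefficient of variation, the spread between libraries of a group beyond counting error, was 18.7% in KO mTBI, 19.6% in WT mTBI and 3.27% in the libraries labelled sham. Whether the last are 3 mice, as labelled, or repeats of 1 pool was not settled, and for repeats the p-values against them, and the shared spread, would not hold as given. WT mTBI 1 stood apart on the first principal component (27.8% of the variance), at 59.0 against -33.2 to 21.5 in the other 8 libraries. Xist stood at 835 CPM in WT mTBI 3 and at 0.892 CPM or less in the other 8 libraries, so that sex was unbalanced and was in no fit. The 10 neuron markers summed to 11455 to 11839 CPM in KO mTBI, 10374 to 12002 CPM in WT mTBI and 12069 to 12349 CPM in libraries labelled sham. Markers of other cells were present as well: oligodendrocyte markers summed to 6719 to 7975, 5459 to 9987 and 6981 to 7020 CPM, and astrocyte markers to 4730 to 5372, 4369 to 5109 and 5422 to 5520 CPM, in the same group order. In bulk samples, fewer cells of a type and less RNA per cell cannot be told apart.

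None of the 35 stress genes was called between WT mTBI and the libraries labelled sham, which also differ in the level of Tmsb4x. A gene was called at a Benjamini-Hochberg adjusted p under 0.05 in edgeR's quasi-likelihood test over the 20032 genes that passed the filter on low counts, among them all 35. With WT mTBI set against libraries labelled sham, 0 of 35 members were called, against 0.509% of all genes tested. At an unadjusted p under 0.05, Ddit4 and Herpud1 were higher and Trib3 and Chac1 lower, 4 of 35 members against 13.2% of all genes (7.45% higher and 5.79% lower). The median log2 change was 0.05 over the heat shock genes, 0.01 over the integrated stress genes and -0.05 over the ER genes, against 0.02 over all genes tested. DESeq2 called 0 members and 541 of all genes. Limma voom called 1 member, Atf4, which was lower, and 722 of all genes.

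With the knockout, again no stress gene was called. With KO mTBI set against WT mTBI, edgeR called 0 of 35 members, against 0.015% of all genes tested. At an unadjusted p under 0.05, Trib3 was higher and Cryab lower, 2 of 35 members against 6.6% of all genes (3.25% higher and 3.35% lower). The median log2 change was -0.06 over the heat shock genes, -0.01 over the integrated stress genes and -0.20 over the ER genes, against 0.00 over all genes. All 10 ER genes had a negative change, between -0.29 and -0.05, where 50.25% of all genes had a positive one. Their groups overlapped in 9, and 1 was lower without overlap, against 4.86% of all genes. The ER median was -0.07 without KO mTBI 1, -0.10 without KO mTBI 3, -0.10 without WT mTBI 1 and -0.46 without KO mTBI 2. The negative signs rested in part on KO mTBI 1, without which Calr (0.05), Xbp1 (0.04), Sdf2l1 (0.03) and Hsp90b1 (0.01) had positive changes. DESeq2 and voom called 0 members as well, against 18 and 4 of all genes.

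Between KO mTBI and libraries labelled sham, edgeR called 0 of 35 members, against 0.0699% of all genes tested. At an unadjusted p under 0.05, Ddit4 was higher and Manf lower, 2 of 35 members against 7.2% of all genes (4.58% higher and 2.62% lower). The median log2 change was -0.04 over the heat shock genes, -0.06 over the integrated stress genes and -0.20 over the ER genes, against 0.01 over all genes. The ER median was -0.49 without KO mTBI 2 and -0.04 without KO mTBI 1. DESeq2 called 0 members and 226 of all genes. Voom, which weights libraries by their quality, called Hspa5, Pdia6 and Manf lower. It called 279 of all genes, where edgeR called 14. The 3 comparisons share libraries, so their values are not independent of each other. The 95% interval of the log2 change lay within 2-fold in either direction for 32 of 35 members in WT mTBI against sham-labelled libraries. This held for 34 in KO mTBI against WT mTBI and for 33 in KO mTBI against sham-labelled libraries. The intervals rest on a spread shared by the 3 groups. Its coefficient of variation, 15.3%, was below the 18.7% of KO mTBI and the 19.6% of WT mTBI. They may thus be too narrow, above all for genes that spread widely among KO mTBI libraries, as most ER genes did.

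**Figure D1:**
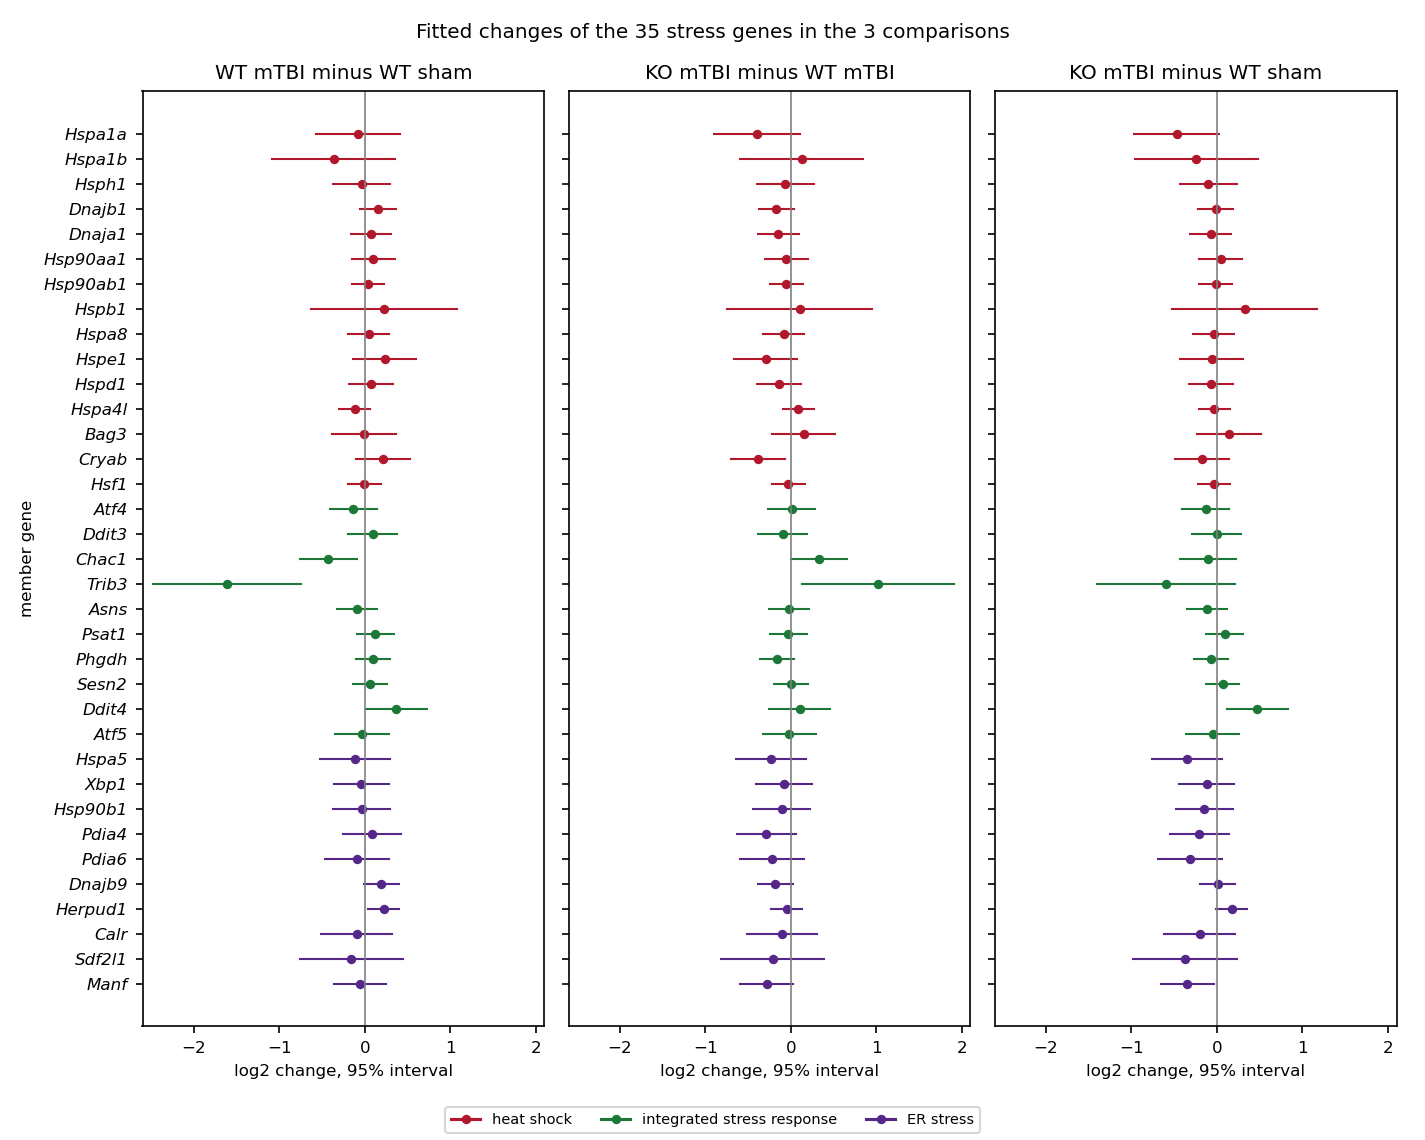
Fitted log2 changes of the 35 genes (rows) in the 3 comparisons (panels), as points with their 95% intervals, coloured by programme. Of the 35 genes 0 were called in any panel, and Trib3 lies farthest from 0 in each, at -1.62, 1.02 and -0.60.

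The heat shock genes were led by constitutive chaperones. Per length, in TPM (counts per exon base, scaled to a common total) averaged over the 9 libraries, Hsp90ab1, a cytosolic Hsp90, stood at 2323, Hspa8, the constitutive Hsp70, at 1298 and Hsp90aa1, the inducible Hsp90, at 764. Hspa1b and Hspa1a, the inducible Hsp70 genes, stood at 21.2 and 5.48 TPM, and Hsf1 at 24.3 TPM. The inducible Hsp70 genes were thus far below the constitutive one, although the level of Hspa8 and Hsp90aa1 is uncertain, as 22.4% and 36.2% of the 150-base windows of their transcripts occur in other genes.

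Hspa1a and Hspa1b are near-identical copies, between which reads can be split or lost. As a measure of this, of the 150-base windows of their transcripts, 46.0% in Hspa1a and 40.5% in Hspa1b occur in another gene, mostly in each other, so their values are uncertain. Hspa1a stood at 2.82, 4.27 and 3.16 CPM in KO mTBI, at 5.70, 3.95 and 3.84 CPM in WT mTBI and at 4.39, 5.82 and 4.03 CPM in libraries labelled sham. Hspa1b stood at 9.80, 25.4 and 9.25 CPM in KO mTBI, at 11.3, 17.4 and 12.1 CPM in WT mTBI and at 17.4, 18.1 and 17.04 CPM in libraries labelled sham. KO mTBI 2 held more Hspa1b than any other library and the other 2 KO mTBI libraries less than any, so that the groups overlapped. The log2 change of Hspa1a was -0.39 (SE 0.23, adjusted p = 0.739) in KO mTBI against WT mTBI and -0.47 (SE 0.23, adjusted p = 0.733) against libraries labelled sham. That of Hspa1b was 0.12 (SE 0.33, adjusted p = 0.923) in KO mTBI against WT mTBI, where it was -0.51 without KO mTBI 2, and -0.24 (SE 0.33, adjusted p = 0.999) in KO mTBI against libraries labelled sham.

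Heat shock elements, inverted repeats of GAA to which Hsf1 binds, were searched as GAANNTTC on both strands in the 250 bases before the RefSeq start of each gene (build GRCm38.p6). RefSeq gave promoters for 29 of the 35 members. The element was in 6 of 10 heat shock genes with a promoter (Hspa1a, Hspa1b, Dnaja1, Hspb1, Hspe1 and Hspd1), in 1 of 10 integrated stress genes, in 0 of 9 ER genes and in 7.73% of the 27025 genes with a promoter (6.69% of all 32851 promoters). The 250-base windows of Hspa1a and Hspa1b were identical at 247 positions, so that the copies share their upstream sequence as well. The sites shown are those of this pair, on the minus strand at chr17:34972228-34972285 and chr17:34959310-34959367, and the one that Hspe1 shares with Hspd1, at chr1:55088039-55088096 and written on the plus strand of Hspe1, with the motif in capitals.
Hspa1a: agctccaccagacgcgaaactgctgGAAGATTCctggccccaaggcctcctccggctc
Hspa1b: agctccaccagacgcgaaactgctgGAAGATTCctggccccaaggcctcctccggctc
Hspe1: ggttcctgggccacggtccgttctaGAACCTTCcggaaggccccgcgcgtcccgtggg

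Hspd1 and Hspe1 encode the mitochondrial chaperonin and its lid, from head-to-head genes whose exons overlap by 112 bases. Hspe1 stood at 35.6, 42.2 and 32.6 CPM in KO mTBI, at 59.9, 39.2 and 36.2 CPM in WT mTBI and at 40.4, 36.4 and 38.5 CPM in libraries labelled sham. WT mTBI 1 was above all other libraries and the rest overlapped. Its log2 change was 0.23 (SE 0.17, adjusted p = 0.572) in WT mTBI against libraries labelled sham, and -0.03 without WT mTBI 1. It was -0.29 (SE 0.17, adjusted p = 0.739) in KO mTBI against WT mTBI.

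The small heat shock proteins Cryab and Hspb1 hold unfolded proteins in solution. Cryab, abundant in glia, stood at 68.1, 78.0 and 58.3 CPM in KO mTBI, at 111, 73.0 and 83.7 CPM in WT mTBI and at 77.2, 77.1 and 76.6 CPM in libraries labelled sham. WT mTBI 1 was again the highest library, and WT mTBI 2 lay below KO mTBI 2. Cryab differed by log2 0.21 (SE 0.14, adjusted p = 0.543) in WT mTBI against libraries labelled sham, by -0.39 (SE 0.14, unadjusted p = 0.0200, adjusted p = 0.732) in KO mTBI against WT mTBI and by -0.18 (SE 0.14, adjusted p = 0.975) in KO mTBI against libraries labelled sham, none of which passed. Its exons overlap those of Hspb2 on the other strand, and the counting did not use strand, so that their reads cannot be told apart. Hspb1 stood at 3.29, 8.67 and 2.47 CPM in KO mTBI, at 5.05, 3.31 and 5.06 CPM in WT mTBI and at 3.32, 4.08 and 4.14 CPM in libraries labelled sham. KO mTBI 2 was the highest and KO mTBI 3 the lowest of all 9, and the log2 change against libraries labelled sham of 0.32 (SE 0.39, adjusted p = 0.999) became -0.42 without KO mTBI 2. Of the Hspb1 windows 36.6% occur in other genes, Hsp25-ps1 among them.

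Dnajb1, the Hsp40 partner of Hsp70, stood at 41.5, 46.1 and 39.8 CPM in KO mTBI, at 53.0, 43.3 and 47.1 CPM in WT mTBI and at 40.3, 44.8 and 43.7 CPM in libraries labelled sham. The groups overlapped, and its log2 change was 0.15 (SE 0.09, adjusted p = 0.493) in WT mTBI against libraries labelled sham and -0.17 (SE 0.09, adjusted p = 0.739) in KO mTBI against WT mTBI. Hspa4l, of the Hsp110 family that recharges Hsp70, stood at 200, 205 and 174 CPM in KO mTBI, at 170, 194 and 183 CPM in WT mTBI and at 201, 204 and 188 CPM in libraries labelled sham. WT mTBI 1 and KO mTBI 3 were the lowest libraries, and the change in WT mTBI against libraries labelled sham was -0.12 (SE 0.08, adjusted p = 0.557). Bag3, which directs chaperone clients to autophagy, stood at 10.0, 11.2 and 9.14 CPM in KO mTBI, at 11.2, 7.50 and 8.69 CPM in WT mTBI and at 10.5, 7.80 and 9.24 CPM in libraries labelled sham. Its groups overlapped, with a log2 change of 0.14 (SE 0.17, adjusted p = 0.999) in KO mTBI against libraries labelled sham. The other heat shock genes had log2 changes of -0.37 to 0.22 (11 genes), -0.15 to 0.15 (10 genes) and -0.10 to 0.05 (10 genes) in WT mTBI against sham-labelled libraries, KO mTBI against WT mTBI and KO mTBI against sham-labelled libraries, in that order. In no heat shock gene were the groups of any comparison apart, against 23.9%, 9.72% and 17.2% of all genes tested.

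**Figure D2:**
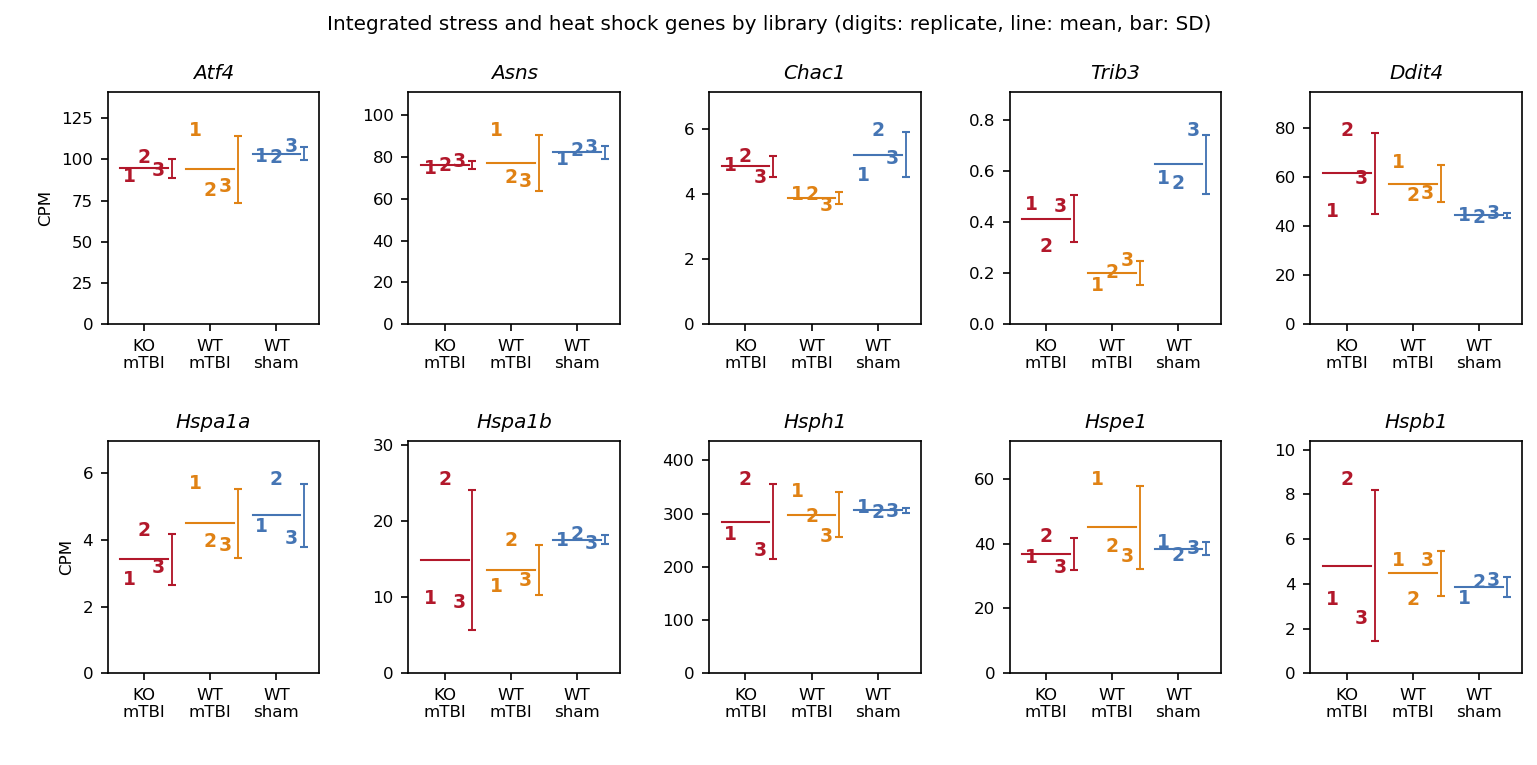
CPM of 5 integrated stress genes (top) and 5 heat shock genes (bottom) in each library, KO mTBI, WT mTBI and WT sham from left to right. Digits mark the replicate, lines the mean and bars the SD of 3 libraries. Trib3 and Chac1 are lower in all 3 WT mTBI libraries than in all others, and Hspa1b and Hspb1 are highest in KO mTBI 2.

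Of the integrated stress genes, Trib3 and Chac1 were the 2 that lay lower in every WT mTBI library than in every library of both other groups, without passing the test. Of all genes, 11.5% were lower without overlap in WT mTBI against sham-labelled libraries. In KO mTBI against WT mTBI 4.86% were higher without overlap, and the share that met both was not computed. Trib3, a pseudokinase that Atf4 and Ddit3 induce and that restrains Akt signalling, was the lowest of the 35 genes, at 0.763 TPM. It had 18, 12 and 18 counts in KO mTBI, 6, 8 and 10 counts in WT mTBI and 22, 20 and 29 counts in libraries labelled sham. In CPM these were 0.471, 0.307 and 0.462 in KO mTBI, 0.154, 0.204 and 0.249 in WT mTBI and 0.571, 0.551 and 0.759 in libraries labelled sham. The groups did not overlap in any of the 3 comparisons, WT mTBI being lowest and KO mTBI between. The log2 change was -1.62 (SE 0.39, unadjusted p = 0.00173, adjusted p = 0.107) in WT mTBI against libraries labelled sham, 1.02 (SE 0.40, unadjusted p = 0.0284, adjusted p = 0.732) in KO mTBI against WT mTBI and -0.60 (SE 0.37, adjusted p = 0.863) in KO mTBI against libraries labelled sham. At these counts, in which both mates of a read pair could count, a library rests on few molecules.

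Chac1, which degrades glutathione and is a target of Atf4, stood at 4.89, 5.17 and 4.52 CPM in KO mTBI, at 3.98, 3.98 and 3.66 CPM in WT mTBI and at 4.57, 5.95 and 5.11 CPM in libraries labelled sham. WT mTBI was below both other groups in every library, and those 2 groups overlapped. Chac1 was 1.34-fold lower in WT mTBI than in libraries labelled sham (log2 -0.43, SE 0.15, unadjusted p = 0.0159, adjusted p = 0.260) and 1.25-fold higher in KO mTBI than in WT mTBI (log2 0.33, SE 0.15, adjusted p = 0.732). Neither passed. Over the 20 alternative settings its log2 change lay between -0.52 and -0.33 in WT mTBI against libraries labelled sham. In KO mTBI against WT mTBI it lay between 0.28 and 0.38. As all WT mTBI libraries were below all others, leaving a library out could not turn the sign.

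The upstream element that Atf4 recognises with its C/EBP partners was searched as TGATGNAA on both strands. It was in 2 of 10 integrated stress genes, Chac1 and Asns, in 1 of 9 ER genes, Herpud1, in 0 of 10 heat shock genes and in 3.91% of all genes with a promoter (3.45% of promoters). In Asns it overlaps a match to the heat shock element. The sites are shown with the element in capitals, reverse complemented in Chac1 (plus strand, chr2:119351024-119351081) and forward in Asns (minus strand, chr6:7693210-7693257).
Chac1: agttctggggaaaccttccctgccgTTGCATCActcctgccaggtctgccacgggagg
Asns: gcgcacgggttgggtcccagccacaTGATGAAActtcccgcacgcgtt

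Ddit4, an inhibitor of the growth kinase complex mTORC1, was the integrated stress gene with the largest positive change against libraries labelled sham. It stood at 46.0, 78.9 and 59.5 CPM in KO mTBI, at 65.9, 52.6 and 53.4 CPM in WT mTBI and at 44.3, 43.5 and 45.3 CPM in libraries labelled sham. All 6 libraries of injured mice were above all 3 libraries labelled sham, KO mTBI 1 by little. Ddit4 was 1.39-fold higher in KO mTBI than in libraries labelled sham (log2 0.47, SE 0.16, unadjusted p = 0.0142, adjusted p = 0.474) and 1.29-fold higher in WT mTBI (log2 0.37, SE 0.16, unadjusted p = 0.0436, adjusted p = 0.361). With no filter on low counts the first of these was called (log2 0.46, adjusted p = 0.0310), and likewise with WT mTBI 1 and KO mTBI 1 left out together (log2 0.64, adjusted p = 0.0102). These settings called 387 and 337 of all genes, against 14 with the filter and all libraries. Without KO mTBI 2, the highest library, the change in KO mTBI fell to log2 0.25 (SE 0.12, adjusted p = 0.653) and was not called.

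Atf4, the central transcription factor, which is known to be regulated mainly in its translation, stood at 89.6, 101 and 93.3 CPM in KO mTBI, at 117, 81.2 and 83.5 CPM in WT mTBI and at 101, 101 and 108 CPM in libraries labelled sham. WT mTBI 1 was the highest of all 9 libraries and the other 2 WT mTBI libraries the lowest. Its log2 change in WT mTBI against libraries labelled sham was -0.14 (SE 0.12, adjusted p = 0.651) with all libraries and -0.33 (SE 0.06, adjusted p = 0.0479) without WT mTBI 1, which was then a call. The fit without WT mTBI 1 called 151 of all genes, against 102 with all libraries. The log2 change of Atf4 was -0.13 (SE 0.12, adjusted p = 0.999) in KO mTBI against libraries labelled sham, with all KO mTBI libraries below, KO mTBI 2 by little. Asns, asparagine synthetase, stood at 74.4, 75.6 and 77.9 CPM in KO mTBI, at 92.5, 70.0 and 68.3 CPM in WT mTBI and at 78.5, 83.1 and 84.4 CPM in libraries labelled sham. As for Atf4, WT mTBI 1 was the highest of all 9 libraries and the other 2 WT mTBI libraries the lowest, and its log2 change was -0.11 (SE 0.11, adjusted p = 0.999) in KO mTBI against libraries labelled sham. With WT mTBI 1 and KO mTBI 1 left out together, Asns was called lower in WT mTBI than in libraries labelled sham (log2 -0.25, adjusted p = 0.0478), as was Atf4 (log2 -0.33, adjusted p = 0.0147). Of all genes, 523 were called in that setting.

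Ddit3, the pro-apoptotic factor CHOP, stood at 13.3, 13.7 and 11.8 CPM in KO mTBI, at 16.2, 12.2 and 12.9 CPM in WT mTBI and at 13.4, 11.8 and 13.5 CPM in libraries labelled sham. The groups overlapped, and the log2 change in KO mTBI against WT mTBI was -0.10 (SE 0.13, adjusted p = 0.837). Psat1 and Phgdh are enzymes of serine synthesis. Psat1 stood at 113, 107 and 101 CPM in KO mTBI, at 122, 92.3 and 114 CPM in WT mTBI and at 100.1, 99.96 and 101 CPM in libraries labelled sham, with a log2 change of 0.12 (SE 0.10, adjusted p = 0.600) in WT mTBI. Phgdh stood at 64.0, 57.5 and 66.3 CPM in KO mTBI, at 77.2, 63.0 and 70.4 CPM in WT mTBI and at 64.0, 63.8 and 69.1 CPM in libraries labelled sham, with a log2 change of -0.17 (SE 0.09, adjusted p = 0.739) in KO mTBI against WT mTBI. In both genes WT mTBI 1 was the highest library and the groups overlapped. The remaining 6 integrated stress genes had log2 changes of -0.14 to 0.10, -0.03 to 0.10 and -0.10 to 0.09 in the 3 comparisons, in the order above. The groups did not overlap for 1 member that was higher and 2 lower in WT mTBI against sham-labelled libraries, for 2 higher in KO mTBI against WT mTBI and for 1 higher and 3 lower in KO mTBI against sham-labelled libraries. The shares of all genes higher and lower in this way were 12.4% and 11.5%, 4.86% and 4.86%, and 8.75% and 8.4%.

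Most ER genes, Dnajb9 and Herpud1 excepted, spread widely among the KO mTBI libraries. Hspa5, the Hsp70 of the ER lumen (GRCm38 chromosome 2, 34771970 to 34777547, plus strand), stood at 153, 288 and 166 CPM in KO mTBI, at 238, 233 and 242 CPM in WT mTBI and at 253, 254 and 267 CPM in libraries labelled sham. KO mTBI 1 and KO mTBI 3 were thus the lowest of the 9 libraries and KO mTBI 2 the highest. Calr, a calcium-binding lectin chaperone (chromosome 8, 84841850 to 84846934, minus strand), stood at 280, 517 and 291 CPM in KO mTBI, at 411, 374 and 384 CPM in WT mTBI and at 420, 411 and 420 CPM in libraries labelled sham, the same order. It was named after its values were seen, as it lies outside the rule for naming genes.

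The log2 change of Hspa5 was -0.35 (SE 0.19, adjusted p = 0.800) in KO mTBI against libraries labelled sham and -0.12 (SE 0.19, adjusted p = 0.806) in WT mTBI against libraries labelled sham. Without KO mTBI 2, Hspa5 was called lower in KO mTBI than in libraries labelled sham (log2 -0.70, SE 0.07, adjusted p = 0.00454), as was Calr (log2 -0.55, SE 0.07, adjusted p = 0.0184, against -0.20, SE 0.19, adjusted p = 0.995 with all libraries). That fit called 26 of all genes, against 14 with all libraries. Against WT mTBI without KO mTBI 2, Hspa5 differed by -0.58 (SE 0.07, adjusted p = 0.0855), which did not pass. Without KO mTBI 1 the change of Hspa5 against libraries labelled sham was -0.18 (adjusted p = 0.9998). The edgeR calls of Hspa5 and Calr thus depended on KO mTBI 2. In voom with all 9 libraries Hspa5 was called lower as well (log2 -0.53, adjusted p = 0.0405).

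**Figure D3:**
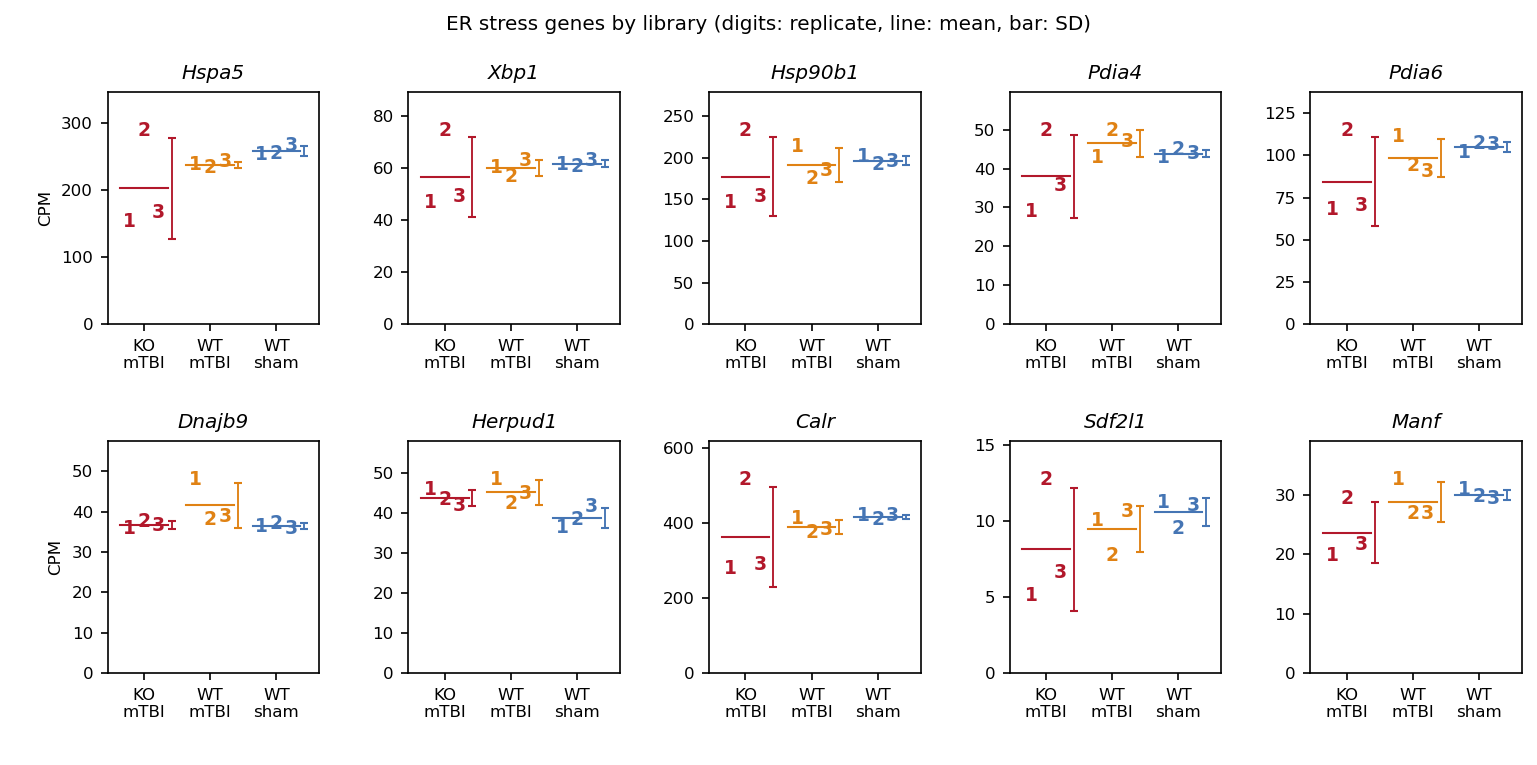
CPM of the 10 ER stress genes in each library, KO mTBI, WT mTBI and WT sham from left to right. Digits mark the replicate, lines the mean and bars the SD of 3 libraries. In all panels but that of Herpud1, KO mTBI 2 lies above KO mTBI 1 and 3, as in Hspa5 at 153, 288 and 166 CPM in KO mTBI 1, 2 and 3.

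Pdia4 and Pdia6 are disulfide isomerases of the ER. Pdia4 stood at 28.8, 49.7 and 35.5 CPM in KO mTBI, at 42.8, 49.7 and 46.9 CPM in WT mTBI and at 42.8, 44.8 and 43.9 CPM in libraries labelled sham. Pdia6 stood at 67.8, 115 and 70.5 CPM in KO mTBI, at 111, 94.1 and 90.3 CPM in WT mTBI and at 102, 107 and 106 CPM in libraries labelled sham. In both, KO mTBI 1 and KO mTBI 3 were below all 6 libraries of the other groups. The log2 change in KO mTBI against WT mTBI was -0.29 (SE 0.16, adjusted p = 0.739) for Pdia4 and -0.23 (SE 0.17, adjusted p = 0.749) for Pdia6. The size of both moved with single libraries: without KO mTBI 2 they were -0.53 for Pdia4 and -0.51 for Pdia6, and without KO mTBI 1 they were -0.13 and -0.09, in the same order. That of Pdia6 in KO mTBI against libraries labelled sham was -0.31 (SE 0.17, adjusted p = 0.807).

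Manf, a secreted neurotrophic protein held in the ER by Hspa5, stood at 19.7, 29.4 and 21.7 CPM in KO mTBI, at 32.6, 26.9 and 26.8 CPM in WT mTBI and at 30.8, 29.7 and 29.4 CPM in libraries labelled sham. KO mTBI 2 was level with the lowest sham-labelled library, and the other 2 KO mTBI libraries were below all. Its log2 change was -0.34 (SE 0.14, unadjusted p = 0.0308, adjusted p = 0.602) against libraries labelled sham and -0.28 (SE 0.14, adjusted p = 0.732) against WT mTBI. Sdf2l1, a partner of Hspa5 in the lumen, stood at 5.10, 12.7 and 6.63 CPM in KO mTBI, at 10.0, 7.75 and 10.6 CPM in WT mTBI and at 11.2, 9.51 and 11.0 CPM in libraries labelled sham. KO mTBI 2 was the highest and KO mTBI 1 the lowest of all, and the change in WT mTBI against libraries labelled sham was log2 -0.16 (SE 0.27, adjusted p = 0.826).

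Dnajb9 and Herpud1 varied little among the KO mTBI libraries. Herpud1, a membrane protein of ER-associated degradation, stood at 45.7, 43.3 and 41.9 CPM in KO mTBI, at 48.3, 42.2 and 44.7 CPM in WT mTBI and at 36.4, 38.2 and 41.5 CPM in libraries labelled sham. All 6 libraries of injured mice were above the 3 labelled sham, with a log2 change of 0.22 (SE 0.08, unadjusted p = 0.0213, adjusted p = 0.285) in WT mTBI and 0.17 (SE 0.08, adjusted p = 0.720) in KO mTBI, neither of which passed. Dnajb9, a co-chaperone of Hspa5, stood at 35.7, 37.7 and 36.7 CPM in KO mTBI, at 48.0, 38.1 and 38.8 CPM in WT mTBI and at 36.4, 37.1 and 35.8 CPM in libraries labelled sham. WT mTBI did not overlap with either other group, and the log2 change was 0.19 (SE 0.09, adjusted p = 0.399) in WT mTBI against libraries labelled sham and -0.18 (SE 0.09, adjusted p = 0.732) in KO mTBI against WT mTBI. The other 6 ER genes had log2 changes of -0.10 to 0.08, -0.23 to -0.05 and -0.37 to 0.01 in WT mTBI against sham-labelled libraries, KO mTBI against WT mTBI and KO mTBI against sham-labelled libraries, in that order. In WT mTBI against sham-labelled libraries 2 ER genes were higher without overlap and 1, Hspa5, was lower. The shares of all genes were 12.4% and 11.5%. In KO mTBI against sham-labelled libraries 1 was higher and 0 lower, against 8.75% and 8.4% of all genes.

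Hspa5, Calr, Pdia6 and Hsp90b1, the Hsp90 of the ER, share an upstream sequence that most genes lack. The ER stress element, to which Atf6 binds with the factor NF-Y, was searched as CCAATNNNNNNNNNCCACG on both strands of the 250 bases before the start. It was in these 4 of 9 ER genes with a promoter, with a second copy in Hsp90b1, in 0 of 10 heat shock and 0 of 10 integrated stress genes and in 0.13% of all genes with a promoter (0.113% of promoters). The sites are shown because their genes spread widely between KO mTBI libraries, as Sdf2l1, Pdia4 and Xbp1 did without the element. The Hspa5 site lies inside the gene span given above, since the RefSeq start used for the search is downstream of the start of that span. Capitals mark the element, which is written forward in Hspa5 (plus strand, chr2:34772000-34772068), Pdia6 (plus strand, chr12:17266466-17266534) and the first Hsp90b1 site (minus strand, chr10:86705613-86705681), and reverse complemented in the second Hsp90b1 site (minus strand, chr10:86705508-86705576) and in Calr (minus strand, chr8:84847050-84847118).
Hspa5: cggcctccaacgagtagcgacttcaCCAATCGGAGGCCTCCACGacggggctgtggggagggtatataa
Pdia6: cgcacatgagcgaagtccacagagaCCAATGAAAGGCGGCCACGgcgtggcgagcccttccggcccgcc
Hsp90b1, first site: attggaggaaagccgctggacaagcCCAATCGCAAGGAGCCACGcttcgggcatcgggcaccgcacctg
Hsp90b1, second site: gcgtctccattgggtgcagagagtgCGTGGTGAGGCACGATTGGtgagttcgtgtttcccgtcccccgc
Calr: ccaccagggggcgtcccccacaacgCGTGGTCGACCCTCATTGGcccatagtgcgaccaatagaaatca

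These 4 genes had a median log2 difference from the mean of the sham-labelled libraries of -0.60, 0.20 and -0.55 in KO mTBI 1, 2 and 3 and of 0.03, -0.16 and -0.10 in the WT mTBI libraries. The 13 other genes with the element and at least 1 CPM on average had medians of -0.03, 0.11 and -0.07 in KO mTBI and of 0.01, 0.01 and 0.04 in WT mTBI. Genes outside the 35 without it had 0.01 in each KO mTBI library. The 5 ER members with a promoter and without the element had medians of -0.40, 0.18 and -0.30 in KO mTBI 1, 2 and 3, and among them Sdf2l1 differed by -1.04, 0.27 and -0.66, Pdia4 by -0.60, 0.18 and -0.30 and Xbp1 by -0.40, 0.27 and -0.33, so that ER members without the element spread widely as well. Among the 13, Dnajc3, a co-chaperone of Hspa5, stood at 53.8, 73.1 and 55.1 CPM in KO mTBI, against 58.7, 55.8 and 59.2 CPM in libraries labelled sham. Creld2, an ER-resident protein, stood at 11.8, 15.8 and 13.2 CPM in KO mTBI, against 15.1, 16.0 and 15.3 CPM in libraries labelled sham. The order of the KO mTBI libraries was that of Hspa5 in both, which were picked after their values were seen. It was that of Hspa5 in 5 of the 13, and KO mTBI 2 was the highest KO mTBI library in 9 and the lowest in 1. A match to the letters is a description of the sequence and does not show binding.

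The place of KO mTBI 2 above KO mTBI 1 and KO mTBI 3 extended beyond the ER genes. KO mTBI 2 was the highest KO mTBI library for 30 of the 35 members, against 37% of all genes tested. This held for 15 of 15 heat shock genes, 9 of 10 ER genes and 6 of 10 integrated stress genes. KO mTBI 1 was the lowest of all 9 libraries for 9 of 10 ER genes, against 9.95% of all genes, and KO mTBI 3 for 10 of 15 heat shock genes, against 9.24%. The median ratio of the highest to the lowest KO mTBI library was 1.64 over the ER genes, 1.23 over the heat shock genes and 1.15 over the integrated stress genes, against 1.18 over the 15605 genes of at least 1 CPM. In WT mTBI the ER genes had a median ratio of 1.19 and in libraries labelled sham of 1.05, against 1.28 and 1.09 over all these genes. Genes are not replicates, so these counts describe the libraries and were not tested.

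**Figure D4:**
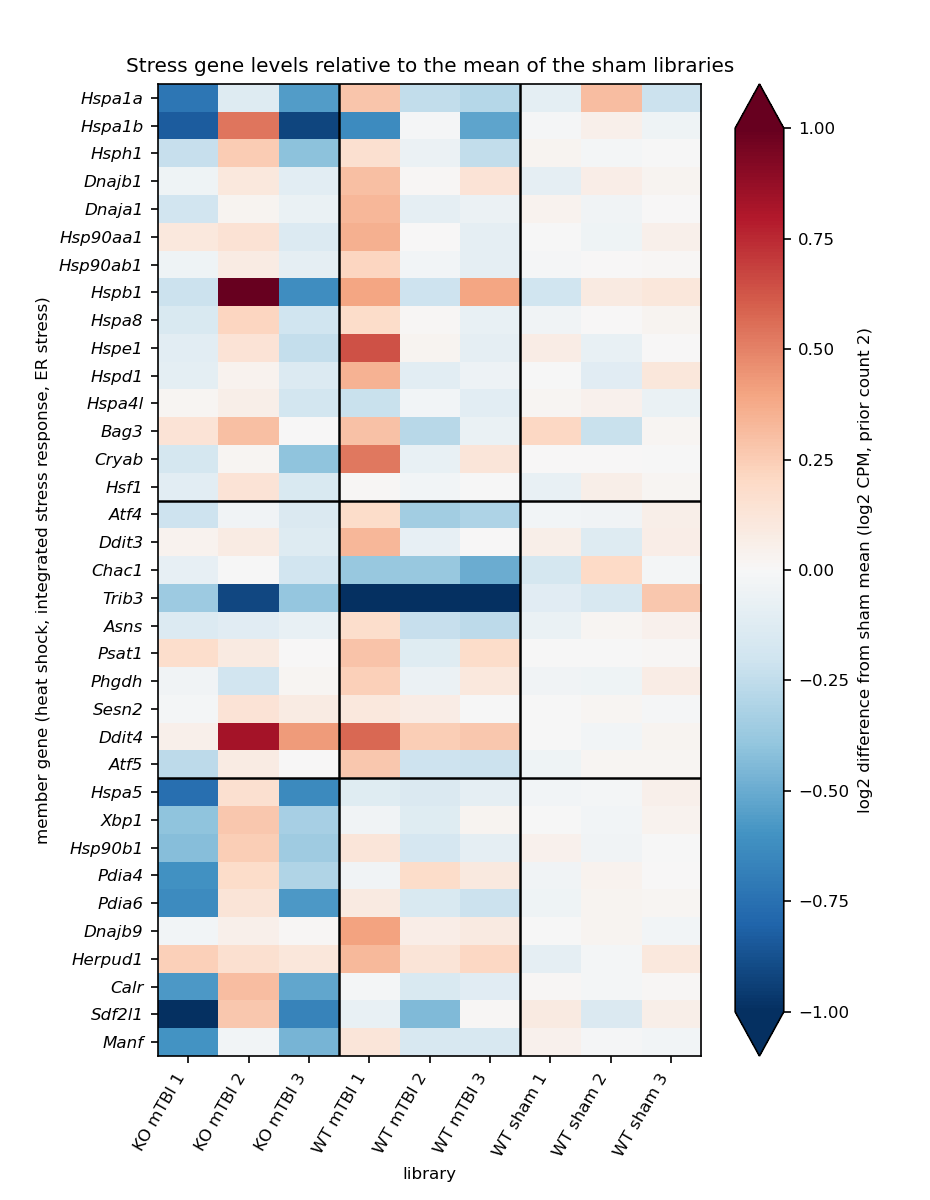
Log2 difference of each member (rows, in the order heat shock, integrated stress response, ER stress, separated by lines) from the mean of the libraries labelled sham, in the 9 libraries (columns, KO mTBI, WT mTBI and WT sham from left to right). Red is higher and blue lower, with colours saturating at 1 and -1. Most ER genes are blue in KO mTBI 1 and 3 and not in KO mTBI 2, and Trib3 is blue in all 6 libraries of injured mice.

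Marker lists of other cells also differed among the KO mTBI libraries. The 10 microglia markers summed to 317, 435 and 336 CPM in KO mTBI 1, 2 and 3, to 302 to 358 CPM in WT mTBI and to 329 to 334 CPM in libraries labelled sham, so that they were highest in KO mTBI 2 as the ER genes were. The 10 choroid plexus and ependymal markers summed to 64.6, 3716 and 2981 CPM in KO mTBI 1, 2 and 3, to 3200 to 4419 CPM in WT mTBI and to 59.6 to 60.6 CPM in libraries labelled sham. They thus separated KO mTBI 1 from KO mTBI 3, which were alike in the ER genes. Oligodendrocyte markers summed to 6719, 7975 and 6833 CPM and the mural and fibroblast markers to 334, 260 and 312 CPM in KO mTBI 1, 2 and 3. No marker of these lists was at 0 in any library, and their part in the result was not tested.

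WT mTBI 1 was the highest WT mTBI library for 26 of the 35 members, against 41.6% of all genes tested, with 12 of 15 heat shock, 8 of 10 integrated stress and 6 of 10 ER genes. The median log2 difference from the mean of the sham-labelled libraries was 0.30, -0.03 and -0.07 over the heat shock genes in WT mTBI 1, 2 and 3, and 0.21, -0.17 and -0.11 over the integrated stress genes. The 20 immediate early genes, which brain activity and tissue handling induce, had medians of 0.77, -0.00 and 0.19 in the same libraries and summed to 1070, 703 and 831 CPM, against 672, 660 and 749 CPM in KO mTBI 1, 2 and 3 and 726 to 741 CPM in libraries labelled sham. In WT mTBI 1 the differences of genes from the mean of all 9 libraries ran against exon length. The rank correlation over the tested genes with a known exon length was -0.29, against 0.01 to 0.11 in the other 8 libraries. Mitochondrially encoded genes took 5.57% of its counts, against 4.32% to 5.16% in the others. The part of these measures in the stress genes was not tested. Leaving WT mTBI 1 out gave a median change of -0.06 over the heat shock genes and -0.13 over the integrated stress genes in WT mTBI against libraries labelled sham, both below the 0.05 and 0.01 found with it.

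**Figure D5:**
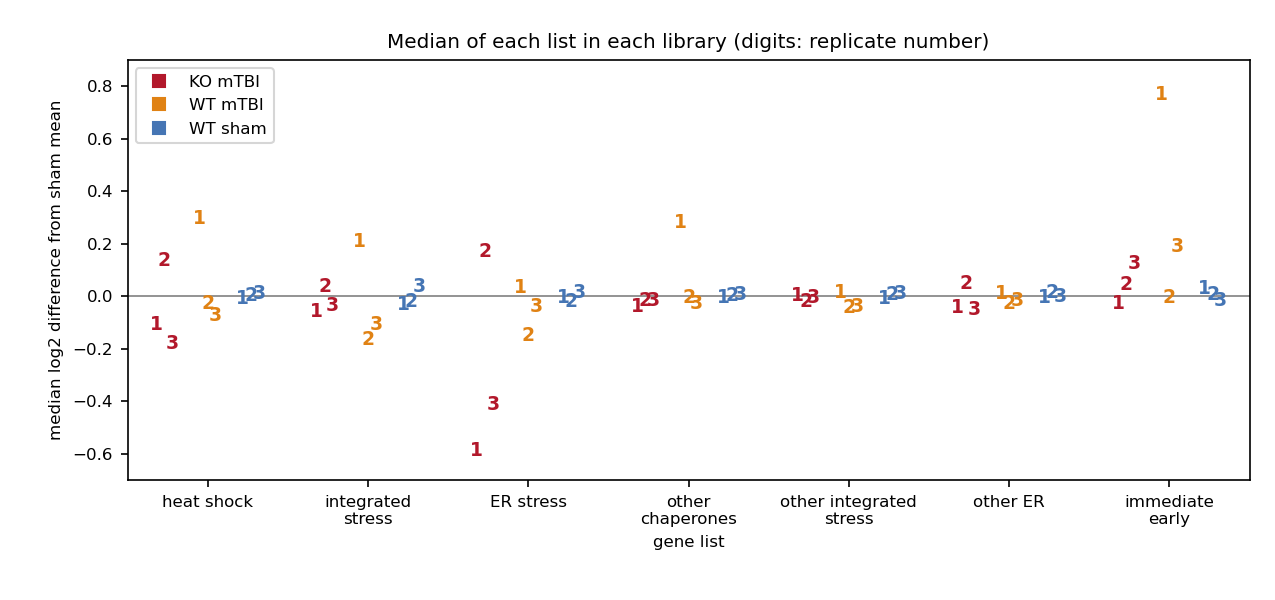
Median log2 difference from the mean of the libraries labelled sham, in each library (digits are replicate numbers), for the 3 programmes, the 3 lists of other pathway genes and the immediate early genes. KO mTBI 1 and 3 lie lowest in the ER list at -0.59 and -0.41, and WT mTBI 1 lies highest in the heat shock list at 0.30 and in the immediate early list at 0.77.

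Other genes of the same pathways gave no call either. Of 49 other cytosolic and mitochondrial chaperones and co-chaperones, 40 of 42 other integrated stress genes and 37 other genes of the ER unfolded protein response that were tested, edgeR called 0 in each of the 3 comparisons, DESeq2 0, and voom 0, 0 and 1. At an unadjusted p under 0.05, 3 were higher and 6 lower in WT mTBI against sham-labelled libraries, 1 higher and 4 lower in KO mTBI against WT mTBI, and 1 higher and 1 lower in KO mTBI against sham-labelled libraries. The shares of all genes were 7.45% and 5.79%, 3.25% and 3.35%, and 4.58% and 2.62%. The other chaperones had a positive change in 39 of 49 genes in WT mTBI against libraries labelled sham, with a median log2 of 0.09, where 53.0% of all genes were positive. Their median was 0.28 in WT mTBI 1 and -0.00 and -0.03 in the other WT mTBI libraries, so that WT mTBI 1 was alone in being above the sham-labelled mean by this much. The other ER genes had medians of -0.04, 0.05 and -0.05 in KO mTBI 1, 2 and 3, a narrower range than in the ER members. KO mTBI 2 was the highest in both lists, but KO mTBI 1 was the lowest only in the ER members.

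Among these pathway genes the smallest p in WT mTBI against libraries labelled sham belonged to the small heat shock gene Hspb6 (log2 0.73, adjusted p = 0.182) and the Hsp70 relative Hspa12a (log2 -0.28, adjusted p = 0.276), to the methionyl-tRNA synthetase gene Mars1 (log2 -0.20, adjusted p = 0.294) and the stress-induced nuclear protein gene Nupr1 (log2 -0.52, adjusted p = 0.317), and to the ER degradation genes Os9 (log2 0.18, adjusted p = 0.253) and Sel1l (log2 -0.20, adjusted p = 0.321). For KO mTBI set against WT mTBI they were those of Hspb6 (log2 -0.55, adjusted p = 0.732) and Hsbp1, a binding partner of Hsf1 (log2 -0.22, adjusted p = 0.732), to the cystine transporter Slc7a11 (log2 -0.42, adjusted p = 0.739) and the mitochondrial folate enzyme Mthfd2 (log2 0.30, adjusted p = 0.739), and to Creld2 (log2 -0.34, adjusted p = 0.732) and Dnajb11, a co-chaperone of Hspa5 (log2 -0.25, adjusted p = 0.732). For KO mTBI set against libraries labelled sham they were those of the co-chaperone Dnajb5 (log2 -0.16, adjusted p = 0.754) and the heat shock factor Hsf4 (log2 0.26, adjusted p = 0.841), to the amino acid transporter Slc7a5 (log2 0.19, adjusted p = 0.735) and the folate enzyme Aldh1l2 (log2 -0.54, adjusted p = 0.739), and to Edem2, of ER degradation (log2 0.23, adjusted p = 0.447), and Wfs1, the wolframin gene (log2 -0.38, adjusted p = 0.485). Wfs1 stood at 166, 130 and 145 CPM in KO mTBI, against 187, 201 and 186 CPM in libraries labelled sham, without overlap. It was the pathway gene that voom called (log2 -0.36, adjusted p = 0.0486).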

How the data were processed

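The deposited table holds raw counts of reads per Ensembl gene, made by the authors with featureCounts 2.0.6 over Ensembl release 98 exons on GRCm38, per the file headers. Its command names no option for read pairs, strand or multi-mapping reads, so the defaults of that version apply: each mate counts once, without regard to strand, and a read that maps to several places is not counted. FastQC, Trim Galore, HISAT2, SAMtools, MultiQC and the build mm10 are listed without versions, per the submitters' processing notes.

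Symbols, positions and exon lengths came from GENCODE M21 and promoters from RefSeq. The starts of the 2 sources can differ, so that the elements of Hspa5 and Asns lie inside the GENCODE gene spans. Ddit3 matched a second identifier that was at 0 in all libraries and was not used. CPM used TMM factors; TPM used exon lengths. The 20032 genes kept by filterByExpr were tested in 1 fit of the 9 libraries by edgeR's quasi-likelihood test, two-sided (edgeR 4.0.16 in R 4.3.3), with Benjamini-Hochberg adjustment over all genes tested. The fit had 6 residual and 5.12 prior degrees of freedom. Standard errors (SE) are the size of the log2 change over the root of F. The test was also run on simulated counts. They were drawn with the same spread of a gene in all libraries, so they could not check the unequal spread of the groups. Differences of single libraries used log2 CPM with a prior count of 2.

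The members, the lists of other pathway genes, of immediate early genes and of cell type markers, the alternatives and the naming rule were chosen with earlier results of these data known. Named were, per arm and comparison, called members and the 4 of smallest p, with Hspa1a and Hspa1b together, and the 2 genes of smallest p per pathway list. Alternatives were RLE or no composition scaling, DESeq2 1.42.0, limma 3.58.1 voom, no or a stricter filter (1 CPM in 3 libraries), only the 6 libraries compared, a replicate block, halved counts, summed sham libraries, each library left out, and WT mTBI 1 with KO mTBI 1 left out.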

Additional observations from a re-analysis of the deposited data

How the results depend on the processing

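Of the 35 members, edgeR called 0 in each comparison, and the count moved as follows. In WT mTBI against libraries labelled sham it was 1 in voom, 2 with WT mTBI 1 and KO mTBI 1 left out together, and 0 to 1 with each library left out in turn. In KO mTBI against libraries labelled sham it was 3 in voom, 1 with no filter, 1 with WT mTBI 1 and KO mTBI 1 left out together, and 0 to 2 with each library left out. In KO mTBI against WT mTBI it was 0 in every setting run. The count of other pathway genes in KO mTBI against libraries labelled sham was 1 in voom, with no filter and with that pair left out, each time Wfs1. The median of the integrated stress genes in KO mTBI against WT mTBI, -0.01, was 0.11 in voom, 0.19 with the pair left out and -0.073 to 0.15 with each library left out. Among the genes named for a comparison, signs turned for Hspe1 in WT mTBI against libraries labelled sham (-0.0276 without the pair, and -0.0276 without WT mTBI 1 to 0.36 without WT mTBI 3). In KO mTBI against WT mTBI they turned for Hspa1b (-0.34 in voom, and -0.51 without KO mTBI 2 to 0.37 without KO mTBI 3), Ddit3 (0.039 without WT mTBI 1, 0.0186 without the pair) and Pdia6 (0.0050 without the pair). In KO mTBI against libraries labelled sham they turned for Hspb1 (-0.17 in voom, and -0.42 without KO mTBI 2 to 0.64 without KO mTBI 3) and Hspa1b (-0.88 without KO mTBI 2 to 0.0073 without KO mTBI 3). Signs of other members turned as well, such as Calr, Xbp1, Sdf2l1 and Hsp90b1 in KO mTBI against WT mTBI without KO mTBI 1. The cause was not tested. With each library left out, medians of the ER genes in KO mTBI ranged from -0.46 (without KO mTBI 2) to -0.07 (without KO mTBI 1) against WT mTBI. Against libraries labelled sham they ranged from -0.49 to -0.04. With the pair left out the ER median against WT mTBI was -0.0125.

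Over all genes, the calls in WT mTBI against libraries labelled sham numbered 102, and 541 in DESeq2, 722 in voom, 676 with no filter, 64 with a stricter filter, 253 with only the 6 libraries compared, 523 with the pair left out and 5 to 252 with each library left out. In KO mTBI against WT mTBI they numbered 3, and 18, 4, 68, 3, 1, 24 and 2 to 7 in the same settings, and in KO mTBI against libraries labelled sham 14, and 226, 279, 387, 14, 71, 337 and 2 to 128. With the sham libraries summed to 1 sample they numbered 1, 1 and 0, and no member was called. The replicate numbers did not pair the samples: same-numbered libraries had correlations of deviations between -0.09 and 0.07. With a replicate block 0 members were called and 107, 3 and 13 genes. Depth limits Trib3, at 6 to 29 counts, and shared sequence limits Hspa1a, Hspa1b, Hspb1 and Hsp90aa1 and, over 18.6% to 23.1% of windows, Hspd1, Dnaja1, Hspa8 and Phgdh.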
